A study of Arabidopsis thaliana with 6 samples.

Results

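Root transcripts of 2 Arabidopsis thaliana lines that differ in the transcription factor RSL4 were compared: 35S::RSL4, in which the 35S promoter is joined to RSL4, and the mutant rsl4-1. The comparison used the 2 arrays titled 35S::RSL4 and the 2 arrays titled rsl4-1, which are 4 of the 6 arrays of the series. The remaining 2 arrays are of the wild type Col-0, and their signals are shown beside the lines but took no part in any change or test. The labels give Col-0 as the genetic background of both lines and do not say whether 35S::RSL4 also carries the rsl4-1 mutation. Their genetic variation entry reads T-DNA knock-out in the labels, for 35S::RSL4 as well as for rsl4-1, so the arrays are called by their titles. Seedlings of both lines grew on upright plates of MS medium with 1% sucrose at pH 5.7 and 25 °C, in constant light after 4 days of stratification, and roots were taken at growth stage 3.2. For Col-0 the labels give 2 days of stratification in one place. No chemical treatment is listed. The labels give neither the number of independent lines behind 35S::RSL4 nor the age in days at harvest. Whether the 2 samples of each line came from separate cultures is not stated, and the spread that the p-values rest on may therefore be technical.

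Root hairs are tubular outgrowths of single epidermal cells that enlarge the surface through which a root takes up water and nutrients. The basic helix-loop-helix protein RSL4 drives the growth phase of the hair, and plants that lack it carry short hairs while plants with more of it carry long ones. A hair grows at its tip, where new wall is laid down and loosened by expansins and xyloglucan-modifying enzymes, and strengthened by extensins, hydroxyproline-rich wall proteins that class III peroxidases can cross-link. The 35S promoter of cauliflower mosaic virus is active in most plant tissues, so it can drive RSL4 outside the cells that normally make it. Because whole roots were measured, fewer cells of a type and less RNA per cell cannot be told apart.

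Each sample was hybridised to an Affymetrix ATH1 array, on which a probe set is a group of short probes for 1 transcript, and the values are MAS5 signals in scaled units. The annotation used here matched no probe set to RSL4 (AT1G27740), so its own level could not be used to check the labels. The arrays of a line correlated at 0.983 and 0.984 across the tested probe sets and arrays of different lines at 0.956 to 0.963. The lines separated along the first principal component (66.2% of the variance), with the rsl4-1 arrays at -20.9 and -25.9 and the 35S::RSL4 arrays at 23.0 and 23.8. Probe sets were tested when their signal was above the 40th percentile of their own array, which lay between 20.3 and 21.8, on at least 2 of the 4 arrays. Of 22746 probe sets 13939 passed, of which 7526 had 1 gene. The hair cell markers measured were EXPA7 and EXPA18, both present in both lines, while no probe set was named for the listed markers of root cap, endodermis, vasculature, meristem or non-hair epidermis.

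Roots of 35S::RSL4 carried more transcript than roots of rsl4-1 of the 3 measured genes of a root hair wall list, EXPA7, EXPA18 and XTH26. Of the 6 extensin probe sets above the filter in both lines 5 were higher, and of the measured class III peroxidases 8 of 36. Several of these extensin probe sets can also bind transcripts of related genes. Transcripts were lower for 4 other peroxidases, a CAP family gene (AT4G33720) and 3 genes listed as rapidly stress-responsive, STZ, AT4G27654 and AT4G27657. Among these lower genes the peroxidase AT5G47000, AT4G33720, AT4G27654 and AT4G27657 passed the filter only through rsl4-1, where they were higher. In all, 392 of the 13939 tested probe sets (2.81%) were higher in 35S::RSL4 and 257 (1.84%) were lower, which together is 4.66%, at an adjusted p below 0.05. Of the 649 called, 60.4% were higher, but with every array centred on its median the split was 479 higher and 187 lower, or 71.9% higher. Rises of at least 2-fold numbered 211 and falls of that size 75, and 58 rises and 19 falls reached 4-fold. The smallest called change was 0.438 on the log2 scale, and the median called rise was 1.06 and the median called fall -0.81. In all 649 called probe sets the arrays of the lines did not overlap, as in 47.3% of all tested. The 95% interval of a change, not adjusted for the number of tests, reached 0.365 to either side in the median probe set. A call needed more than that, and with 2 arrays a line larger differences could also go uncalled, such as -0.64 for XTH32. A missing call therefore does not show that a transcript was unchanged. Without the second rsl4-1 array the falls numbered 147 rather than 257.

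**Figure D1:**
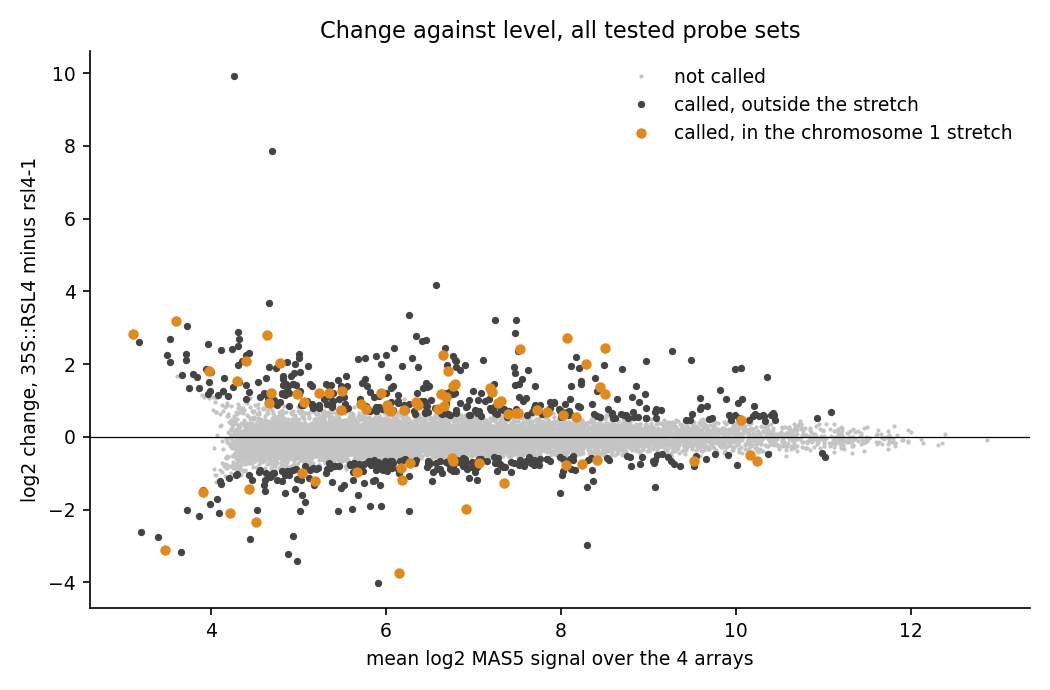
Log2 change between 35S::RSL4 and rsl4-1 against the mean log2 MAS5 signal over the 4 arrays, 1 point per tested probe set. Orange points are probe sets called in the chromosome 1 stretch around RSL4, dark points those called elsewhere or with no placed gene, and grey points those not called. Called changes occur over the whole range of signal, and the smallest among them is 0.438.

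The 3 measured wall-loosening genes of root hairs all rose. EXPA7, an expansin made in hair-forming cells, had signals of 72.8 and 59.8 on the rsl4-1 arrays and 275 and 301 on the 35S::RSL4 arrays. The lines did not overlap, and the rise was 4.37-fold (log2 change 2.13 ± 0.16 SE, adjusted p = 2.94e-07). EXPA18, a second hair cell expansin, gave 183 and 160 in rsl4-1 and 436 and 465 in 35S::RSL4, a 2.63-fold rise (1.39 ± 0.15, adjusted p = 9.86e-06). XTH26, a xyloglucan endotransglucosylase/hydrolase active in root hairs, gave 26.9 and 22.0 against 99.4 and 117, a 4.44-fold rise (2.15 ± 0.19, adjusted p = 1.70e-06). These were 3 of 3 measured members of a list of 13 root hair wall genes, beside 2.81% called higher over all tested probe sets. Gene lists here were chosen with earlier results of these data known, so their counts are descriptions with no test. The median log2 change of the 3 genes was 2.13, beside -0.04 over all tested. In each of them both Col-0 arrays lay between the lines, at 99.4 and 114 for EXPA7, 277 and 244 for EXPA18, and 40.6 and 35.4 for XTH26.

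The rise did not extend to most measured members of the wall-loosening families, of which many listed genes had no named probe set. Of 44 listed expansins 18 had one and 12 were measured. Of these 2 rose, EXPA7 and EXPA18, and EXPA15 fell, beside 2.81% called higher and 1.84% lower over all tested probe sets. EXPA15 signals were 647 and 649 in rsl4-1 and 434 and 487 in 35S::RSL4, a 1.41-fold fall at an adjusted p of 0.0438. That call was narrow, since the adjusted p was 0.147 without the first rsl4-1 array, 0.204 without the second, 0.157 without the first 35S::RSL4 array, 0.0898 with median centring, 0.109 without the filter and 0.138 without the intensity trend. Of 30 listed XTH genes 9 had a named probe set and 7 were measured. XTH26 rose and the other 6 did not pass, with changes from -0.64 for XTH32 to 0.38 for XTH33.

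Of 18 listed extensins 10 had a named probe set, of which 3 were below the filter, 6 were above it in both lines, and AT1G26250 was above it in 35S::RSL4 alone. Of the 6 above it in both lines 5 rose, beside 2.81% called higher over all tested probe sets. AT4G08410 had signals of 60.3 and 54.9 in rsl4-1 and 213 and 223 in 35S::RSL4, a 3.79-fold rise (1.92 ± 0.16, adjusted p = 6.31e-07). AT5G06630 gave 98.5 and 118 against 343 and 313, a 3.04-fold rise (adjusted p = 4.14e-06). The extensin HRGP1 rose 2.62-fold, from 275 and 298 to 693 and 813 (adjusted p = 6.86e-06). Its near neighbour AT3G54580 rose 2.78-fold, from 47.6 and 58.5 to 165 and 130 (adjusted p = 5.60e-05). In these 4 genes the Col-0 arrays lay between the arrays of the 2 lines, which did not overlap, as in every called probe set.

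The remaining extensins were weaker or dimmer, and 2 of them are named here after their values were seen. AT1G23720 rose 1.67-fold, from 178 and 151 to 240 and 313 (adjusted p = 0.0133). AT3G28550 did not pass, with 155 and 233 in rsl4-1 and 308 and 236 in 35S::RSL4 (log2 change 0.51, adjusted p = 0.156). AT1G26250 passed the filter only through its 35S::RSL4 arrays, at 25.0 and 21.2, against 1.09 and 9.78 in rsl4-1. Its rise was at least 1.06-fold, counted from the 40th percentile of the rsl4-1 arrays, at an adjusted p of 0.0269. The adjusted p was 0.0789 without the first rsl4-1 array, where the log2 change was 1.23 in place of 2.82, 0.121 without the first 35S::RSL4 array, 0.0662 without the second, 0.215 without the filter and 0.0830 without the intensity trend. Extensin genes are repetitive and alike in sequence, so a probe set may also bind transcripts of a related gene.

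**Figure D2:**
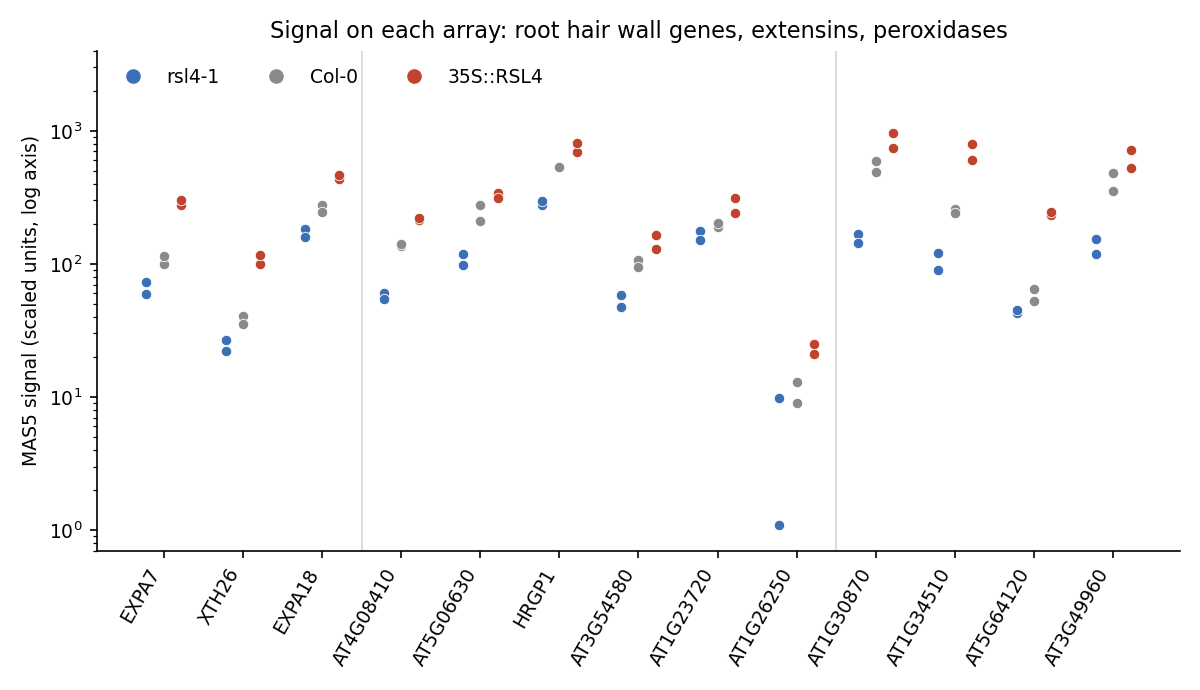
MAS5 signal (log axis) of each array for the 3 called root hair wall genes, the 6 called extensins and the 4 class III peroxidases with the lowest adjusted p among the rises, with 2 points per genotype. The 35S::RSL4 points lie above the rsl4-1 points for every gene shown, from 275 and 301 against 72.8 and 59.8 for EXPA7 to 25.0 and 21.2 against 1.09 and 9.78 for AT1G26250.

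Class III peroxidases moved in both directions. These secreted haem enzymes both cross-link wall polymers and make reactive oxygen. Of 72 listed genes 54 had a probe set and 36 were measured. Of these 8 rose, 4 fell and 24 did not pass, beside 2.81% called higher and 1.84% lower over all tested probe sets. The falls include AT5G47000, which passed the filter only through rsl4-1, so the count of falls describes these genes and not the family. The median log2 change of the 36 was 0.03. AT1G34510 had the largest rise, from 120 and 89.8 in rsl4-1 to 601 and 791 in 35S::RSL4, which is 6.63-fold (2.73 ± 0.17, adjusted p = 4.54e-08). AT5G64120 rose 5.46-fold, from 42.7 and 45.0 to 234 and 245 (adjusted p = 4.54e-08). AT1G30870, a gene listed as specific to root hairs, rose 5.45-fold, from 168 and 144 to 743 and 962 (adjusted p = 4.54e-08). AT3G49960 rose 4.56-fold, from 153 and 119 to 529 and 716 (adjusted p = 4.40e-07). All 4 rises were larger than the gap between arrays of a line, and AT1G34510 and AT1G30870 lie in the chromosome 1 stretch.

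Col-0 stood differently among these 4 peroxidases. For AT5G64120 the Col-0 signals of 64.3 and 52.3 were close to rsl4-1, while for AT1G30870 (596 and 486) and AT3G49960 (478 and 351) they were closer to 35S::RSL4. AT1G34510 was in between, at 259 and 242. A further 4 peroxidases rose by less and are named after their values were seen. AT4G26010, which acts in root hair growth, rose 2.43-fold from 624 and 535 to 1381 and 1429 (adjusted p = 6.86e-06), AT5G17820 rose 1.92-fold, AT5G66390 1.53-fold and AT5G64100 1.51-fold.

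AT5G19890 had the largest fall among peroxidases, from 82.6 and 96.5 in rsl4-1 to 20.9 and 22.6 in 35S::RSL4, which is 4.11-fold (adjusted p = 3.70e-06). AT5G47000 fell from 54.3 and 60.2 to 20.2 and 17.9, below the 40th percentile on both 35S::RSL4 arrays, so at least 2.80-fold (adjusted p = 0.000180). AT5G47000 passed the filter only through rsl4-1, the line where it was higher. Col-0 signals of AT5G47000 were 56.9 and 55.5, level with rsl4-1, and those of AT5G19890 were 43.3 and 42.4, between the lines. AT2G41480 and AT4G08780, named after their values were seen, fell 1.63-fold and 1.61-fold. The count of falling peroxidases was 2 without the second rsl4-1 array, 2 without the first 35S::RSL4 array, 7 without the second 35S::RSL4 array and 2 without the filter.

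**Figure D3:**
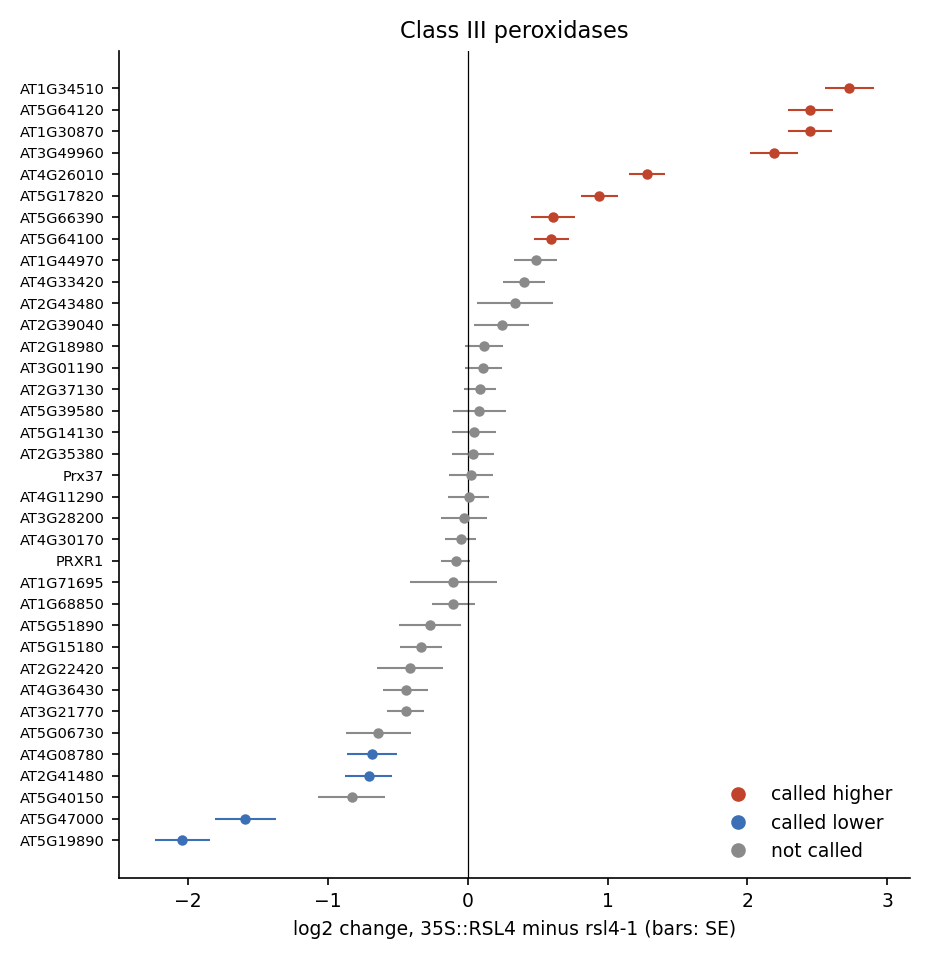
Log2 change between 35S::RSL4 and rsl4-1 of the 36 measured class III peroxidases, with bars of 1 SE from the fit. The 8 called rises reach 2.73 and the 4 called falls reach -2.04, and the 24 not called lie between -0.83 and 0.49.

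The CAP family, secreted proteins related to the pathogenesis marker PR-1, had 9 measured members, of which 4 rose and 1 fell. Over all tested probe sets 2.81% were called higher and 1.84% lower. AT4G30320 had signals of 40.5 and 23.9 in rsl4-1 and 169 and 268 in 35S::RSL4, a 6.84-fold rise (2.77 ± 0.24, adjusted p = 1.21e-06). AT4G25790 rose 5.12-fold, from 82.6 and 78.7 to 385 and 443 (adjusted p = 4.54e-08). AT4G33730 rose 3.37-fold, from 101 and 94.1 to 307 and 350 (adjusted p = 1.19e-06). The fourth, AT1G50060, rose 2.26-fold and is named after its values were seen (adjusted p = 0.0173). AT4G33720, the locus beside AT4G33730, went the other way, with 240 and 243 in rsl4-1 and 19.4 and 11.7 in 35S::RSL4. That is a fall of at least 11.8-fold (adjusted p = 6.91e-09), and the gene passed the filter only through rsl4-1. Its Col-0 signals were 24.7 and 21.7, near those of 35S::RSL4, so rsl4-1 was the genotype that stood apart.

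Several of the rises named outside the stretch belonged to transcripts that were dim or absent in rsl4-1. The probe set of the pseudogene AT2G13870 had signals of 0.78 and 0.49 in rsl4-1 and 643 and 557 in 35S::RSL4, at least 27.5-fold (adjusted p = 5.34e-12); its probes, by their type, can also bind related transcripts. Col-0 was at 0.60 and 4.36, so that signal was present in 35S::RSL4 alone among the 3 genotypes. The GDSL lipase gene AT2G03980 gave 8.10 and 8.65 against 47.7 and 46.8, a rise of at least 2.17-fold (adjusted p = 1.36e-05). TET12, a tetraspanin membrane protein, gave 10.8 and 8.84 against 43.7 and 48.9, a rise of at least 2.12-fold (adjusted p = 4.12e-05). AT5G40860 rose at least 3.26-fold, from 14.9 and 14.5 to 72.0 and 69.9 (adjusted p = 3.09e-06), and AT5G26080 at least 1.75-fold (adjusted p = 6.97e-05). AT5G51270 gave 9.46 and 2.83 against 29.6 and 20.8 (adjusted p = 0.00963), and its adjusted p was 0.1 without the first 35S::RSL4 array and 0.140 without the filter. Each of the genes of this group passed the filter only through 35S::RSL4.

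Among genes listed as rapidly stress-responsive, STZ inside the chromosome 1 stretch fell, as did AT4G27654 and AT4G27657 outside it. STZ, a zinc finger repressor induced by stress whose locus is next to RSL4, had signals of 229 and 249 in rsl4-1 and 60.5 and 61.5 in 35S::RSL4, a 3.92-fold fall (-1.97 ± 0.16, adjusted p = 4.40e-07). AT4G27654 gave 54.2 and 61.9 against 5.27 and 13.1, a fall of at least 2.84-fold (adjusted p = 6.57e-05). AT4G27657, a locus close by, gave 29.4 and 24.3 against 6.70 and 6.51, a fall of at least 1.31-fold (adjusted p = 0.00116). In all 3 genes the Col-0 arrays were near rsl4-1 or above it, at 301 and 290 for STZ, 63.2 and 70.8 for AT4G27654 and 21.9 and 26.6 for AT4G27657. The list held 39 genes, of which 5 were measured and 3 fell, beside 1.84% called lower over all tested probe sets. AT4G27654, AT4G27657 and WRKY53 passed the filter only through rsl4-1, so the count of 3 falls describes these genes and not the list. The other 2, WRKY53 and AT4G29780, did not pass (log2 changes -0.83 and -0.72, adjusted p = 0.122 and 0.159).

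Other falls outside the stretch left 35S::RSL4 below the filter on both arrays, so that their sizes are bounds. AT3G47250 fell from 37.9 on both rsl4-1 arrays to 5.60 and 3.24, at least 1.86-fold (adjusted p = 3.33e-05). AT1G10110 fell at least 1.35-fold, AT3G44070 at least 1.73-fold, the pseudogene AT2G04460 at least 1.48-fold and AT1G12320 at least 2.40-fold, with adjusted p from 0.000209 to 0.00134. Unlike AT4G27654 and AT4G27657, these 5 genes had Col-0 means closer to 35S::RSL4 than to rsl4-1, as with 8.47 and 5.22 for AT3G47250 and 20.3 and 14.8 for AT1G12320.

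JKD, a zinc finger protein that takes part in patterning the root epidermis, was the 1 measured member of 12 listed patterning genes. Its signals were 41.7 and 47.0 in rsl4-1 and 26.3 and 25.0 in 35S::RSL4, a 1.73-fold fall (adjusted p = 0.0445), with Col-0 at 49.2 and 49.7. The adjusted p ranged from 0.0914 to 0.296 when any 1 of the 4 arrays was left out, was 0.0717 with quantile normalization, 0.0686 with median centring and 0.169 without the filter.

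In further families single members were called, beside 2.81% called higher and 1.84% lower over all tested probe sets. Of 9 measured tau class glutathione transferases, detoxifying enzymes, GSTU25 and GSTU28 rose. GSTU28 rose 1.75-fold, from 150 and 173 to 283 and 281 (adjusted p = 0.00328). Of 7 measured SWEET sugar transporters, SWEET2, a vacuolar carrier of roots, rose 2.19-fold from 36.7 and 45.3 to 88.9 and 90.1 (adjusted p = 0.000904). SWEET14 fell at least 2.00-fold from 38.7 and 43.3 to 11.3 and 19.1 (adjusted p = 0.00376, and 0.0784 without the filter), and passed the filter only through rsl4-1. Among 27 measured UGT glycosyltransferases 2 rose. UGT73D1 rose at least 1.26-fold, from 5.46 and 7.34 to 26.6 and 28.2 (adjusted p = 0.000933), and passed the filter only through 35S::RSL4. UGT87A2 rose 1.73-fold, from 76.2 and 67.9 to 119 and 129 (adjusted p = 0.00790, and 0.0681 without the second rsl4-1 array). Of 8 measured beta-glucosidases BGLU16 rose 1.51-fold, from 250 and 194 to 325 and 340. Its adjusted p of 0.0367 was 0.395 without the second rsl4-1 array, 0.0687 and 0.0913 without the first and second 35S::RSL4 arrays, 0.0512 with quantile normalization, 0.106 without the filter and 0.112 without the intensity trend.

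Other lists had no measured member past the threshold, and most of their genes were not measured. Of 9 listed root hair regulators 1 had a named probe set, which was below the filter. Measured members without a call were 9 of 18 listed PRA1 genes, 16 of 49 SCPL genes, 3 of 22 iron genes and 3 of 22 auxin genes. The ethylene regulator EIN3, 1 of 18 listed, and the tip growth genes SCN1 and FER, 2 of 26, had no call either. FER, a receptor kinase of root hair growth, gave 578 and 618 in rsl4-1 and 569 and 584 in 35S::RSL4. SCN1, a regulator of where hairs emerge, gave 353 and 411 against 422 and 412. The leaf genes LHCB4.1 and RCA, a check for shoot tissue, changed by -0.04 and -0.01, and their summed signal was 258 on each rsl4-1 array and 251 and 257 on the 35S::RSL4 arrays. The reference genes PEX4 and AT4G34270 changed by 0.07 and -0.27, neither past the threshold.

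Genes on chromosome 1 from AT1G16170 to AT1G48090, the stretch that holds RSL4, were described apart. The stretch covers 3064 of the 9701 annotated loci of the chromosome, 1250 of them before RSL4 and 1813 after. Of 572 tested probe sets in it, 50 (8.74%) rose and 23 (4.02%) fell, so 12.8% were called. Of 6913 placed elsewhere, 142 (2.05%) rose and 112 (1.62%) fell, so 3.67% were called, and the rest of chromosome 1 had 3.69% of 1354. Probe sets with no placed gene had 4.99% of 6454 called, and none of the 33 of the plastid genome was called by limma (4 had an unadjusted p below 0.05). The bounds of the stretch were set with earlier results of these data known, so the shares are a description with no test of their difference. The share was higher inside than elsewhere under every alternative run, at 10.1% against 2.1% without the second rsl4-1 array and 3.1% against 0.843% without the filter.

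Called genes lay throughout the stretch rather than only beside RSL4. In the 250 loci to either side of RSL4, 124 probe sets were tested and 11.3% called, 5 higher and 9 lower. From 251 to 750 loci away the share was 15.0% before RSL4 and 14.4% after it, and from 751 to 1250 loci it was 10.3% before and 20.0% after, the last of 35 probe sets. In the outermost bin of the stretch, 1251 to 1813 loci after RSL4, it was 7.84% of 51. Beyond the stretch it was 3.77% of 239 from 1251 to 2500 loci before RSL4, and 4.29% of 163 from 1814 to 2500 loci after it. Rises outnumbered falls in each of these bins inside the stretch except the one nearest RSL4.

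**Figure D4:**
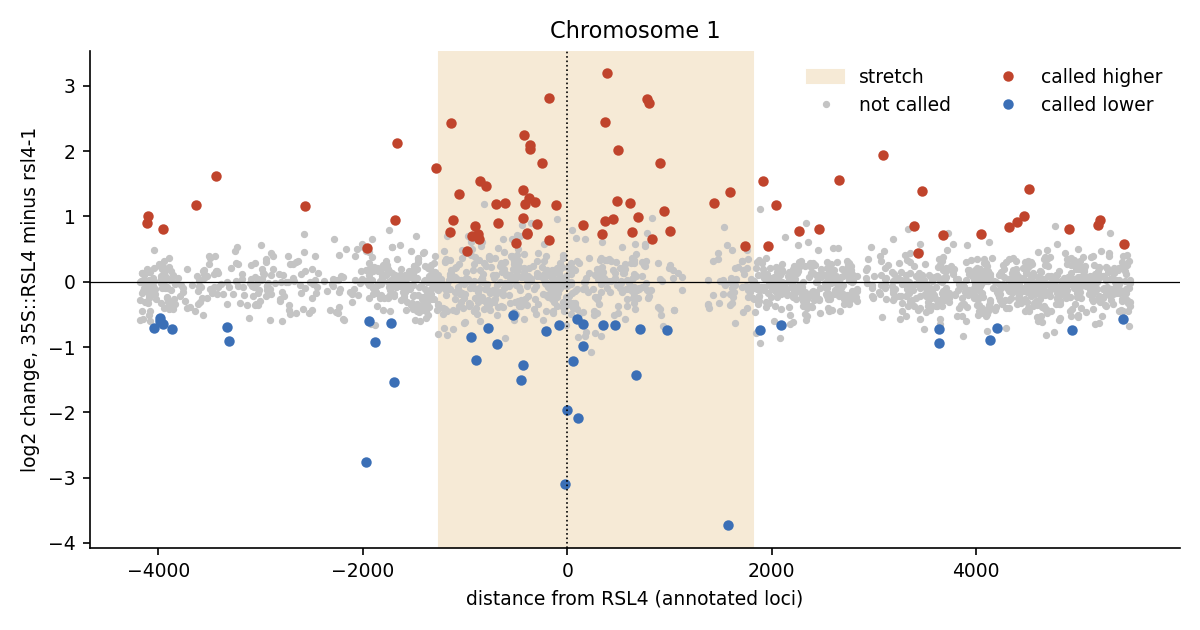
Log2 change between 35S::RSL4 and rsl4-1 of the tested probe sets on chromosome 1 against the distance of their locus from RSL4, in annotated loci, with the stretch shaded. Called rises (red) and falls (blue) are denser in the stretch, where 12.8% were called, than along the rest of the chromosome, where 3.69% were. AT1G43040 has no place in the annotated order and is not drawn.

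Rises in the stretch included 2 peroxidases described above, AT1G34510 and AT1G30870. GSTU25 had signals of 84.2 and 75.5 in rsl4-1 and 360 and 512 in 35S::RSL4, a 5.38-fold rise (2.43 ± 0.17, adjusted p = 1.66e-07), with Col-0 at 277 and 271. The transcribed pseudogene AT1G34330 gave 10.8 and 8.40 against 62.9 and 69.6, at least 3.04-fold (adjusted p = 1.52e-06). AT1G30990 gave 1.25 and 13.1 against 30.3 and 44.8, at least 1.69-fold (adjusted p = 0.0117). Its arrays differed most within rsl4-1, and the adjusted p was 0.0662 without the second 35S::RSL4 array, 0.168 without the filter and 0.0692 without the intensity trend.

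In 5 of the 6 falls named in the stretch Col-0 was nearer to 35S::RSL4 than to rsl4-1, and STZ was the exception. The gene hemb2, named for 5-aminolevulinate dehydratase of tetrapyrrole synthesis, had signals of 274 and 243 in rsl4-1, 20.2 and 18.7 in 35S::RSL4 and 15.8 and 8.39 in Col-0. Its fall was at least 12.6-fold (adjusted p = 1.28e-09). AT1G27570, 19 loci from RSL4, gave 27.1 and 39.4 against 5.79 and 2.53, at least 1.60-fold (adjusted p = 0.000219). AT1G43040 fell at least 2.54-fold, from 51.4 and 52.4 to 10.5 and 9.86 (adjusted p = 1.22e-05), and the GDSL lipase gene AT1G28590 at least 1.88-fold, from 33.7 and 43.8 to 11.4 and 7.24 (adjusted p = 0.000389). AT1G23200, a pectinesterase gene, fell at least 1.24-fold, from 27.1 and 23.8 to 7.13 and 11.2 (adjusted p = 0.0124). That call had an adjusted p of 0.118 and 0.0612 without the first and second rsl4-1 arrays, 0.0652 without the first 35S::RSL4 array and 0.133 without the filter.

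The place of Col-0 differed between the stretch and other loci. Among the 73 called probe sets of the stretch the Col-0 mean was closer to 35S::RSL4 in 59 (80.8%), which held for 84.0% of the rises and 73.9% of the falls. Among the 254 called elsewhere it was closer to 35S::RSL4 in 104 (40.9%), with 41.5% of the rises and 40.2% of the falls. Over all tested probe sets the share was 43.3%, with 51.6% of those with a positive change and 36.8% of those with a negative one. Col-0 lay between the lines in 68.5% of those called in the stretch, 81.1% of those called elsewhere and 33.0% of all tested. Called probe sets were picked for a gap between the lines, which leaves more room for Col-0 inside it. The share over all tested is therefore no like comparison for them. No test was made of these shares.

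Away from the stretch, calls were spread over all 5 chromosomes. In windows of 500 annotated loci, the 6 windows inside the stretch had 8.00% to 21.7% of their probe sets called, and 69 windows outside it had a median of 3.26%, with none called in 8. Over 9% were called in 5 of the outside windows, some of them with few probe sets. The highest, on chromosome 3 from AT3G42630 to AT3G45190, had 7 of 45 called (15.6%), and its neighbour up to AT3G49220 had 11 of 102, 10 of them higher. On chromosome 4 the window from AT4G24200 to AT4G28440, which holds AT4G27654, AT4G27657, AT4G25790 and SWEET14, had 13 of 142 called, 4 higher and 9 lower.

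**Figure D5:**
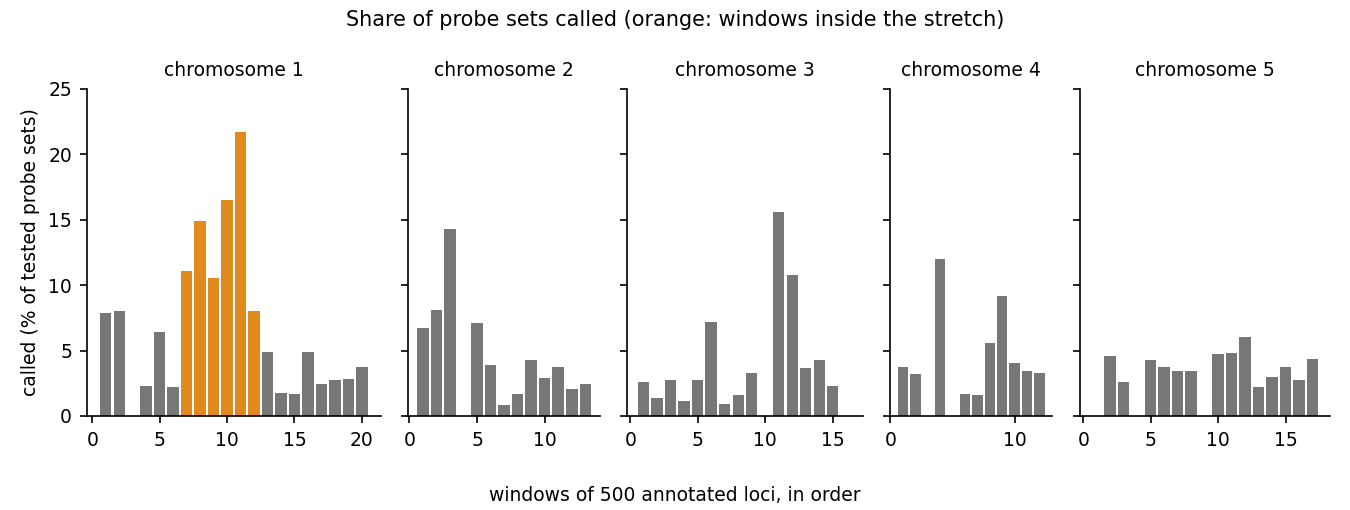
Percent of tested probe sets called in consecutive windows of 500 annotated loci along each of the 5 chromosomes, in chromosome order. The 6 windows inside the chromosome 1 stretch (orange) lie between 8.00% and 21.7%, and the median of the 69 windows outside it is 3.26%.

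Of the 649 called probe sets 322 had no gene placed by the annotation, and 4 of these are given by their probe set. Probe set 261647_at had signals of 3.13 and 0.93 in rsl4-1, 386 and 407 in 35S::RSL4 and 61.9 and 52.1 in Col-0. It rose at least 18.2-fold (adjusted p = 2.42e-09), and all 3 genotypes were apart. Probe set 247871_at rose 18.0-fold, from 25.6 and 19.8 to 361 and 454 (adjusted p = 8.30e-10), with Col-0 again between, at 175 and 179. Falls were those of 247718_at, from 107 and 99.7 to 9.75 and 9.60, at least 5.06-fold (adjusted p = 4.54e-08), and of 254550_at, from 97.1 and 83.9 to 7.18 and 12.9, at least 4.42-fold (adjusted p = 8.15e-07). Col-0 was near 35S::RSL4 for the first of these, at 18.8 and 12.6, and near rsl4-1 for the second, at 87.8 and 80.0.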

How the data were processed

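The authors deposited an intensity per probe set, the linear MAS5 signal. The submitters' processing notes name MAS5 and GCOS. Versions are not given in the sources used here. MAS5 scales each array on its own and is noisy for dim probe sets. The authors' scaling was kept. After 64 control probe sets were left out, the trimmed mean signal was 99.2 on the 4 arrays, which such scaling brings about and which is no check of it. Median signals were 39.6 and 39.7 on the rsl4-1 arrays and 38.2 and 37.6 on the 35S::RSL4 arrays.

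Log2 signals of the 4 arrays went into limma (version 3.58.1, R 4.3.3; lmFit, then eBayes along an intensity trend). With 2 residual and 14.0 prior degrees of freedom, changes had a median SE of 0.172. Two-sided p-values were adjusted by Benjamini-Hochberg over the 13939 tested probe sets, and called means an adjusted p below 0.05. A locus with several probe sets enters its list through the brightest. The number of arrays limits the precision. A fold is "at least" where both arrays of a line were below their 40th percentile: the dim line is then set per array to the higher of that percentile and its signal.

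In the annotation 13513 probe sets have 1 gene and 503 several, and 8730 are absent. Of the first, 13436 matched RefSeq (TAIR10.1), which gave names and locus order; 48 were placed by locus number alone. The build is not named with the values, so no coordinates are printed, and no sequences were used here.

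Named are the 10 largest rises and 10 largest falls outside the stretch and 6 of each inside it (called, 1 gene, lines not overlapping), up to 4 members of each list by adjusted p, and 2 rises and 2 falls with no gene name. Ranks are by log2 change, in which signals below the filter have no order. The stretch, lists and rule were chosen with earlier results of these data known. Alternatives were another normalization, filter, offset or threshold, no trend, all 6 arrays, a replicate block and leaving out each array.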

Additional observations from a re-analysis of the deposited data

How the results depend on the processing

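None of the 52 probe sets named by rule changed direction under any alternative run, and their lost calls are given with the genes above. For genes named after their values were seen, the alternatives are not given. A filter on mean signal left 15 of the 52 named probe sets untested. Without the filter on dim probe sets, which tests 22746 probe sets, 202 were called higher and 95 lower, with 3.1% called in the stretch and 0.843% elsewhere. At a threshold of 0.1, 564 were called higher and 473 lower, and 6.19% elsewhere. Leaving out each array in turn gave 284 to 406 higher and 147 to 294 lower, 9.97% to 11.4% in the stretch and 2.1% to 3.63% elsewhere. The lowest count of falls and the lowest share elsewhere came without the second rsl4-1 array; the cause was not tested. In these fits the lone array of a line is assumed to vary like the other line's. The replicate block gave 472 higher and 338 lower, with 15.7% called in the stretch and 4.76% elsewhere. The labels give only a number, and same-numbered arrays deviated with a correlation of -0.09, so this is no paired design. The other alternatives kept each count within 1.5 times.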
